A study of Arabidopsis thaliana with 12 samples.

Results

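The aquaporins of Arabidopsis thaliana roots were followed in 12 RNA-seq libraries from seedlings treated with the soil bacterium Azospirillum brasilense. The family was taken as 35 listed loci, 13 plasma membrane intrinsic proteins (PIPs), 10 tonoplast intrinsic proteins (TIPs), 9 NOD26-like intrinsic proteins (NIPs) and 3 small basic intrinsic proteins (SIPs). Of these, 31 were among the 21200 genes of the count table, and 29 passed the filter on low counts and were tested among 18867 genes. TIP5;1 reached at most 4 counts and NIP7;1 at most 7 counts in any library, so both, which are known from pollen and anthers, were below that filter. GAMMA-TIP3 (TIP1;3), NIP3;1, NIP4;1 and NIP4;2 were not analysed here. Whole roots of wild-type Columbia seedlings were sampled 7 d and 24 h after 1 of 3 treatments, with n = 2 libraries in each of 6 groups. Seedlings were kept in days with 16 h light and 8 h dark. The treatments, given 4 days after planting, were 2 uL of A. brasilense Az39 in saline, 2 uL of an A. brasilense ipdc mutant in saline (both at an OD595 of 1), or 2 uL of 0.9% saline alone. The ipdc gene encodes a decarboxylase through which the bacterium makes auxin, and the parent strain of the mutant is not given in the sources used here. Each library came from a pool of at least 50 root systems, so values are averages over many plants, and in such whole-root samples fewer cells of a type and less RNA per cell cannot be told apart.

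Aquaporins are membrane channels that let water, and in some cases small solutes, cross cell membranes. PIPs set much of the water permeability of the plasma membrane in root cells, and PIP1 proteins often reach that membrane in complexes with PIP2 proteins. TIPs serve the vacuole membrane, NIPs carry metalloids such as boric acid, and SIPs are found in the endoplasmic reticulum. Auxin is known to lower the expression of many aquaporins in Arabidopsis roots.

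Libraries held 9665704 to 21541793 counts in genes. All 12 genes of a root marker list were detected in every library, and the root beta-glucosidase gene PYK10 stood between 5322 and 11180 CPM. CPM is the count of a gene scaled to the size of its library. Transcripts of other tissues were also present. A list of 10 seed storage and oil body genes took 4.94% and 0.283% of counts in the ipdc 24 h libraries, against 0.00139% to 0.122% in the other 10 libraries. A list of 19 photosynthesis genes took 0.338% and 1.92% in the ipdc 24 h libraries, against 0.0513% to 0.288% elsewhere. All 19 photosynthesis genes were detected in every library, and 3 of the 10 seed genes were at 0 counts in 1 library each.

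Aquaporin transcripts were most abundant in saline roots at 7 d. At that time the family took 0.548% and 0.567% of counts with Az39, 0.644% and 0.686% with ipdc, and 0.981% and 1.03% with saline. At 24 h the 6 libraries lay between 0.458% and 0.692%. PIPs made up 0.357% and 0.351% of counts with Az39 at 7 d, 0.407% and 0.436% with ipdc, and 0.607% and 0.628% with saline. TIPs made up 0.168% and 0.1895% with Az39 at 7 d, 0.2101% and 0.2202% with ipdc, and 0.345% and 0.371% with saline. Both saline 7 d libraries were above all 10 other libraries for 12 of the 29 tested members, against 6.75% of all genes tested. All 12 were PIPs or TIPs, among them PIP1A, PIP2A, GAMMA-TIP1 and DELTA-TIP2.

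Levels of different genes were set side by side per kilobase of coding length. The feature type counted is not stated, so reads outside the coding parts may be included and the order is approximate. On this scale the vacuolar GAMMA-TIP2 (TIP1;2) had the highest mean over the 12 libraries, at 1079 CPM per kb. PIP2A (PIP2;1) followed at 1007 CPM per kb and GAMMA-TIP1 (TIP1;1) at 928 CPM per kb. The next 4 were PIP1B (PIP1;2) at 841, PIP1A (PIP1;1) at 735, PIP1C (PIP1;3) at 573 and PIP3A (PIP2;7) at 524 CPM per kb. PIP2B (PIP2;2) at 459.9, DELTA-TIP2 (TIP2;2) at 393 and DELTA-TIP1 (TIP2;1) at 211 CPM per kb completed the first 10. The ranges of neighbours in this order overlapped widely, for example 665 to 1957 CPM per kb for GAMMA-TIP2 and 638 to 1650 CPM per kb for PIP2A. The order also differed with time, since GAMMA-TIP2 was first in all 6 libraries of 7 d, while at 24 h PIP2A was first in 3 libraries and GAMMA-TIP1 in the other 3. The most abundant SIP was SIP1A (SIP1;1) at 149.6 CPM per kb, and the most abundant NIP was NIP5;1 at 76.3 CPM per kb.

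**Figure D1:**
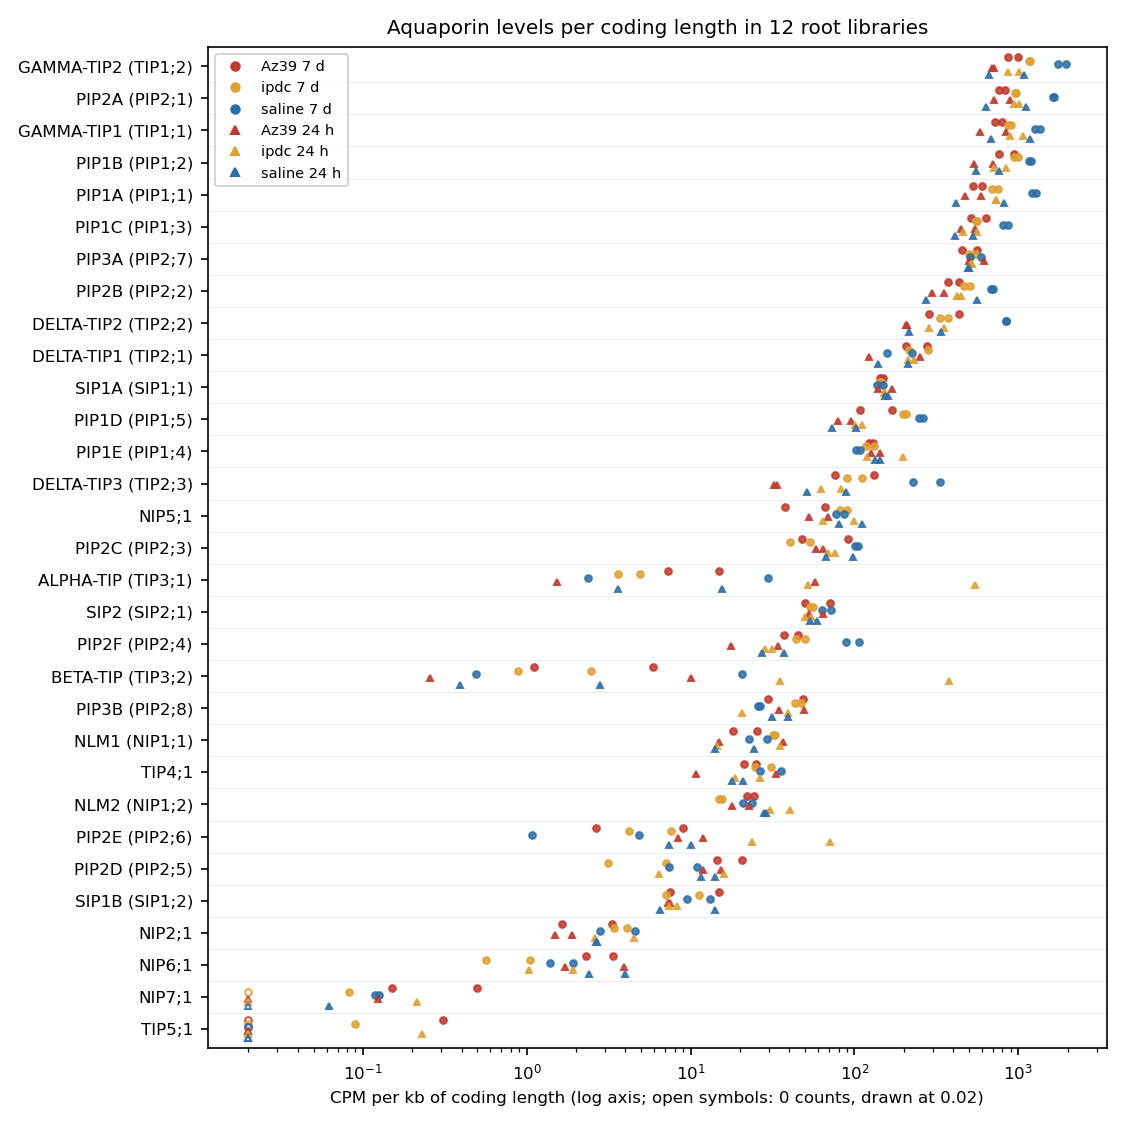
Level of each of the 31 aquaporins in the count table, in CPM per kb of coding length on a log axis, for every library. Colours give the treatment and symbols the time, members run down the page by mean level, and open symbols mark libraries with 0 counts. Members from GAMMA-TIP2, with a mean of 1079, to TIP5;1, with at most 0.306, span the family, and saline 7 d symbols stand to the right of the others for many PIPs and TIPs.

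Among the PIP1 group, 4 of 5 members were highest in saline roots at 7 d. PIP1A (AT3G61430, chr3:22733243-22735394, plus strand) had 454 and 518 CPM with Az39 at 7 d, 598 and 651 CPM with ipdc, and 1097 and 1042 CPM with saline. At 24 h it had 507 and 408 CPM with Az39, 626 and 633 CPM with ipdc, and 358 and 707 CPM with saline. The saline 7 d pair stood apart, while the saline 24 h pair enclosed all 4 inoculated 24 h libraries. PIP1B (AT2G45960, chr2:18910081-18911982, plus strand), which contributes to root water transport, had 693 and 848 CPM with Az39 at 7 d, 847 and 901 CPM with ipdc, and 1045 and 1089.7 CPM with saline. Its 24 h values were 637.5 and 483 CPM with Az39, 764 and 646 CPM with ipdc, and 500.1 and 687 CPM with saline. The gap between saline and the strains at 7 d was narrower than for PIP1A. PIP1C (AT1G01620, chr1:225665-227543, minus strand) had 549.6 and 443 CPM with Az39 at 7 d, 483 and 477 CPM with ipdc, and 742 and 689.7 CPM with saline. At 24 h PIP1C had 470.1 and 383 CPM with Az39, 480.3 and 397 CPM with ipdc, and 354 and 453 CPM with saline. Here too both saline 7 d libraries were above the other 10. PIP1D (PIP1;5, AT4G23400, chr4:12220641-12222468, plus strand) had 93.9 and 146 CPM with Az39 at 7 d, 171 and 178 CPM with ipdc, and 213 and 227 CPM with saline. Its 24 h libraries had 82.7 and 68.8 CPM with Az39, 87.1 and 96.5 CPM with ipdc, and 63.2 and 88.1 CPM with saline. PIP1D ran in the order Az39, ipdc, saline at 7 d with no overlap between groups. The fifth member, PIP1E (PIP1;4), ranged from 88.7 to 172 CPM and was lowest in the saline 7 d libraries.

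The PIP2 group held the most abundant plasma membrane aquaporin and several rare members. PIP2A (AT3G53420, chr3:19803473-19805730, minus strand), a main water channel of root cells whose activity is set by phosphorylation, had 714 and 662 CPM with Az39 at 7 d, 832 and 823 CPM with ipdc, and 1404 and 1426 CPM with saline. At 24 h PIP2A had 771 and 614 CPM with Az39, 878 and 809 CPM with ipdc, and 551 and 960.4 CPM with saline. Every library outside the saline 7 d pair was at or below 960.4 CPM. PIP2B (AT2G37170, chr2:15613368-15615022, minus strand), also known for root water uptake, had 369 and 427 CPM with Az39 at 7 d, 461 and 502 CPM with ipdc, and 668 and 695 CPM with saline. Its 24 h values were 348 and 292 CPM with Az39, 419 and 441 CPM with ipdc, and 269.8 and 555 CPM with saline. The saline 24 h replicates of PIP2B differed by more than the 7 d group means did. PIP2F (PIP2;4, AT5G60660, chr5:24375368-24377206, minus strand), a member expressed mainly in roots, had 32.7 and 39.6 CPM with Az39 at 7 d, 43.7 and 38.8 CPM with ipdc, and 77.8 and 93.5 CPM with saline. At 24 h it had 29.8 and 15.4 CPM with Az39, 27.5 and 24.8 CPM with ipdc, and 24.0 and 32.6 CPM with saline. The saline 7 d pair was highest, and all 4 inoculated 7 d libraries were above the 6 libraries of 24 h. PIP3A (AT4G35100, chr4:16708361-16710407, plus strand), an abundant channel of shoots and roots, had 472 and 381 CPM with Az39 at 7 d, 422 and 455 CPM with ipdc, and 426 and 502 CPM with saline. Its 24 h values were 520.4 and 418 CPM with Az39, 439 and 434 CPM with ipdc, and 413 and 422 CPM with saline. PIP3A varied least of the 13 PIPs, with its highest library 1.37 times its lowest. PIP2C (PIP2;3) ranged from 34.8 to 89.7 CPM, PIP2D (PIP2;5) from 2.71 to 17.8 CPM and PIP3B (PIP2;8) from 17.3 to 40.9 CPM. PIP2E (PIP2;6), known from shoots, is given with the transcripts of other tissues.

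TIPs of the TIP1 and TIP2 groups divided into members that followed the saline 7 d pattern and 1 that did not. GAMMA-TIP1 (AT2G36830, chr2:15445294-15446621, plus strand) had 597 and 544 CPM with Az39 at 7 d, 651 and 680.4 CPM with ipdc, and 1020.5 and 957 CPM with saline. At 24 h GAMMA-TIP1 had 639.8 and 439.6 CPM with Az39, 675 and 802 CPM with ipdc, and 517 and 891 CPM with saline. GAMMA-TIP1, a general water channel of the vacuole membrane, thus had its widest replicate gap in saline at 24 h. Its close relative GAMMA-TIP2 (AT3G26520, chr3:9722443-9723904, minus strand) had 658 and 759.5 CPM with Az39 at 7 d, 890.4 and 895 CPM with ipdc, and 1339 and 1491 CPM with saline. In the 24 h libraries it had 542 and 526 CPM with Az39, 663 and 769.8 CPM with ipdc, and 507 and 827 CPM with saline. The Az39 pair was the lowest of the 3 pairs at 7 d. DELTA-TIP2 (AT4G17340, chr4:9698940-9700472, plus strand), a vacuolar channel of roots, had 215 and 329 CPM with Az39 at 7 d, 282 and 250.1 CPM with ipdc, and 635 and 631 CPM with saline. At 24 h DELTA-TIP2 had 158 and 156 CPM with Az39, 214 and 264 CPM with ipdc, and 162 and 255 CPM with saline. The saline 7 d replicates were nearly equal and far above the rest. DELTA-TIP3 (TIP2;3, AT5G47450, chr5:19248249-19249622, minus strand), which carries water and ammonia, had 57.1 and 99.1 CPM with Az39 at 7 d, 84.1 and 67.9 CPM with ipdc, and 172 and 252 CPM with saline. Its 24 h values were 25.3 and 24.2 CPM with Az39, 61.9 and 47.2 CPM with ipdc, and 38.5 and 66.8 CPM with saline. The Az39 24 h pair was the lowest of all 6 pairs. DELTA-TIP1 (AT3G16240, chr3:5505360-5507050, plus strand), the third member of its group, had 155 and 209.8 CPM with Az39 at 7 d, 163 and 211 CPM with ipdc, and 119 and 169 CPM with saline. At 24 h it had 189 and 92.8 CPM with Az39, 174 and 159 CPM with ipdc, and 105 and 159 CPM with saline. Unlike its relatives, DELTA-TIP1 had overlapping groups in each comparison. TIP4;1 ranged from 8.03 to 26.8 CPM.

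NIPs and SIPs were scarcer. NLM2 (NIP1;2, AT4G18910, chr4:10366044-10368510, plus strand), which carries aluminium malate in roots, had 21.6 and 19.6 CPM with Az39 at 7 d, 13.2 and 13.8 CPM with ipdc, and 20.9 and 18.6 CPM with saline. The 24 h libraries had 15.8 and 20.1 CPM with Az39, 35.8 and 26.9 CPM with ipdc, and 25.7 and 24.7 CPM with saline. NLM2 was therefore highest in the ipdc 24 h pair and lowest in the ipdc 7 d pair. NIP5;1, the boric acid channel of the root plasma membrane, ranged from 34.3 CPM in the first Az39 7 d library to 102 CPM in the second saline 24 h library. NLM1 (NIP1;1) ranged from 12.5 to 32.5 CPM, NIP2;1 from 1.29 to 3.98 CPM and NIP6;1, a boric acid channel of shoots, from 0.517 to 3.65 CPM. SIP1A varied least of all 29 members, between 99.8 and 122 CPM, while SIP1B (SIP1;2) ranged from 4.73 to 10.9 CPM and SIP2 (SIP2;1) from 39.2 to 56.6 CPM.

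With Az39 at 7 d, 5 of 29 members fell against saline, all PIPs or TIPs, and the other 24 did not pass. Across all genes tested, 1.34% were called lower and 2.35% higher in this comparison, 3.69% in all. Differences are log2 fold changes with their standard errors (n = 2 libraries per group), tested with edgeR's quasi-likelihood test with Benjamini-Hochberg adjustment over all tested genes and called at an adjusted p under 0.05. The p-values measure the spread between these pooled samples, and an exact permutation test of 2 against 2 libraries cannot go below p = 0.333. DELTA-TIP2 fell by 1.22 ± 0.25 on the log2 scale (adjusted p = 0.0344), GAMMA-TIP2 fell by 0.998 ± 0.223 (adjusted p = 0.0429) and DELTA-TIP3 fell by 1.44 ± 0.33 (adjusted p = 0.0465). Of the plasma membrane members, PIP2F fell by 1.24 ± 0.28 (adjusted p = 0.0452) and PIP2A fell by 1.04 ± 0.24 (adjusted p = 0.0473). The libraries of the groups did not overlap for any of these 5, and their levels with Az39 were 0.368 to 0.501 of those with saline. The next members by p-value, PIP1A at -1.14 ± 0.27 (adjusted p = 0.0517) and PIP1D at -0.87 ± 0.23 (adjusted p = 0.0667), did not pass. The median log2 difference was -0.53 over the 29 members, -0.53 over the 13 PIPs, -0.90 over the 8 TIPs, -0.26 over the 5 NIPs and -0.02 over the 3 SIPs, against 0.05 over all genes. Groups did not overlap for 14 members that were lower and 4 that were higher, against 26.4% and 30.7% of all genes. All 5 adjusted p-values lay close to the threshold, and the count of 5 fell to 0 without Az39 replicate 1, without either saline replicate or without either ipdc replicate of 7 d. It was 3 (DELTA-TIP2, DELTA-TIP3 and PIP1D) without Az39 7 d replicate 2 and 1 (PIP2F) without either Az39 24 h library, while the log2 differences of the 5 stayed between -1.89 and -0.90 whichever of the 4 compared libraries was left out.

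**Figure D2:**
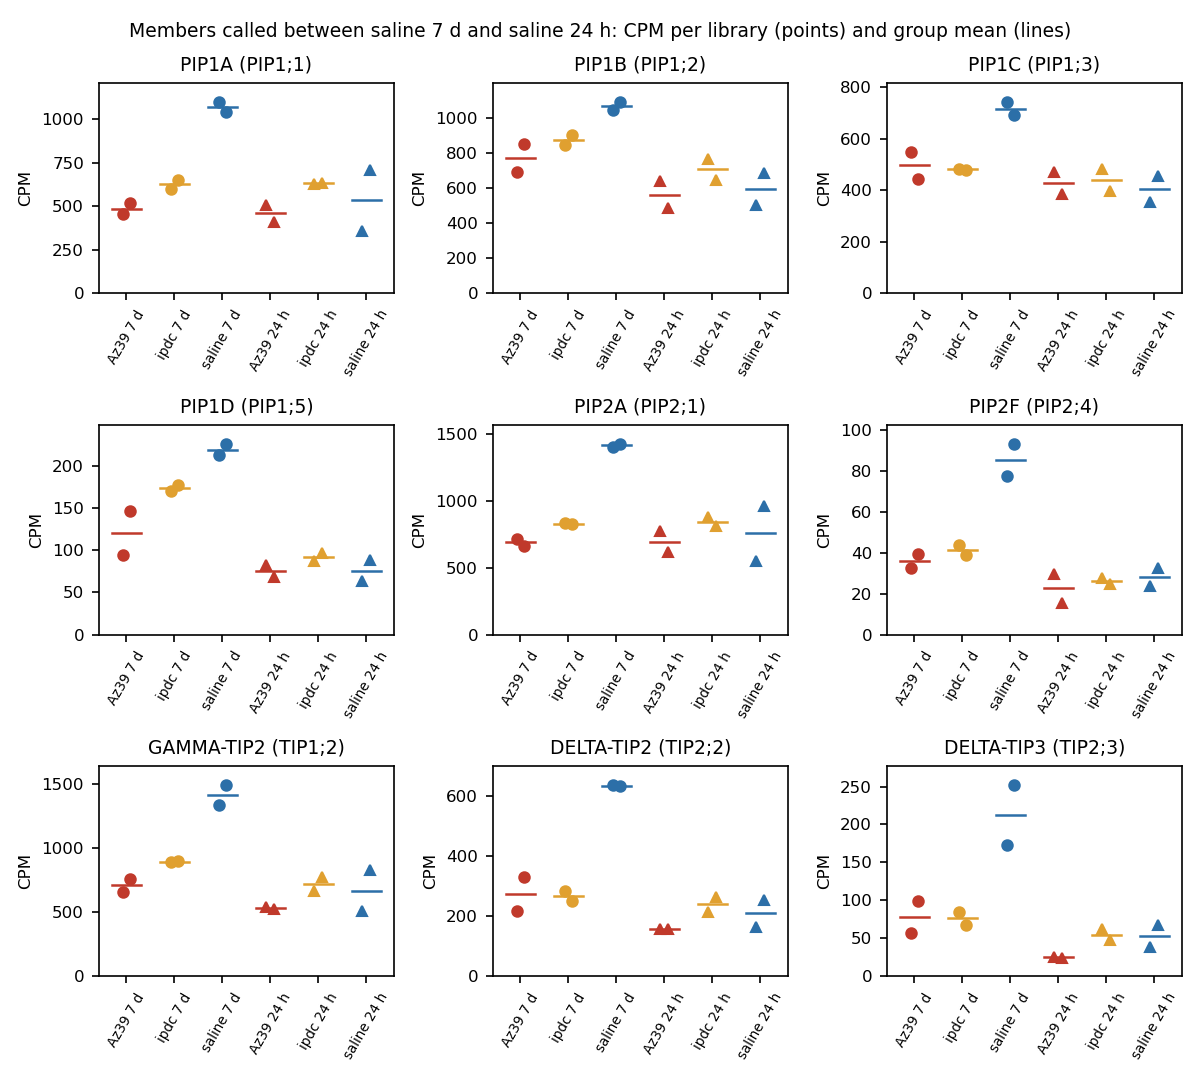
CPM of the 9 members that differed between saline 7 d and saline 24 h roots, by group. Points are the 2 libraries of a group and lines are group means. In each panel the saline 7 d pair is the highest, for example 1404 and 1426 CPM for PIP2A, and the saline 24 h replicates are spread more widely than the saline 7 d replicates in most panels.

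To set these 5 members side by side, the 250 bases before each gene start are given below 5′ to 3′ on the gene's strand, from RefSeq TAIR10.1. The window of PIP2A is chr3:19805731-19805980 (minus strand), that of PIP2F chr5:24377207-24377456 (minus strand) and that of GAMMA-TIP2 chr3:9723905-9724154 (minus strand). The window of DELTA-TIP2 is chr4:9698690-9698939 (plus strand) and that of DELTA-TIP3 chr5:19249623-19249872 (minus strand). Capitals mark matches, on either strand, to the G-box CACGTG, the GCC-box GCCGCC, the W-box core TTGAC or the auxin response element TGTCTC.

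PIP2A: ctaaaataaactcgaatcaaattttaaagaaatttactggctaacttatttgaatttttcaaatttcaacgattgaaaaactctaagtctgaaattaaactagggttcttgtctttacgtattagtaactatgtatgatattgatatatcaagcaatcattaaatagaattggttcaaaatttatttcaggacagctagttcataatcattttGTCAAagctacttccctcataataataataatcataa
PIP2F: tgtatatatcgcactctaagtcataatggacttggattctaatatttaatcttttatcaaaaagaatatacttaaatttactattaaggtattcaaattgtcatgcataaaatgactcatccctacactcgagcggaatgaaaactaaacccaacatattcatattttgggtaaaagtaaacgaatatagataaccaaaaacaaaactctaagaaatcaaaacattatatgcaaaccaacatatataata
GAMMA-TIP2: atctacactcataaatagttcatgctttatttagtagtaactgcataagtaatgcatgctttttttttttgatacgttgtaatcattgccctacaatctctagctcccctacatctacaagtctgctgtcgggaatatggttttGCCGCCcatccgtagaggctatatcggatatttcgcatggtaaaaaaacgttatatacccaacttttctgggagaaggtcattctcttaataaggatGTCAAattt
DELTA-TIP2: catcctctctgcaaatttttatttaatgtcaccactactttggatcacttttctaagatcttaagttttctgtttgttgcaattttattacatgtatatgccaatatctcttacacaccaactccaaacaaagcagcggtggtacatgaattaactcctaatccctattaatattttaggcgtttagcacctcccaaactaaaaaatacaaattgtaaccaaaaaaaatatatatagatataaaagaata
DELTA-TIP3: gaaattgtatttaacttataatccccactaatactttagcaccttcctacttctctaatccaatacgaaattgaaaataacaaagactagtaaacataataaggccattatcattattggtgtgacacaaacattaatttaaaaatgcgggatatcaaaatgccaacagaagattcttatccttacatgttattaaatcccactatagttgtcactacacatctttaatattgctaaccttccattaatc

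The G-box was found in 0 of the 5 windows and in 6.46% of the same windows of 27561 protein-coding genes. The GCC-box was found in 1, that of GAMMA-TIP2, against 1.88% of all windows. The W-box core, a short motif, was found in those of PIP2A and GAMMA-TIP2, against 44.9% of all windows. The auxin response element was found in 0 of the 5, against 10.9% of all windows. No motif searched was shared by all 5, no match overlapped another, and no other annotated gene overlapped these windows. Such matches describe letters in the windows and say nothing of binding.

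The ipdc mutant at 7 d was set against the same saline libraries, so its values and those of Az39 are not independent. In the edgeR test 0 of 29 members passed, against 0.0159% of all genes (0.0106% higher and 0.0053% lower). An unadjusted p under 0.05 was found for 10 members, and for 1980 of all 18867 genes. DESeq2 called 4, namely PIP2C, DELTA-TIP2, DELTA-TIP3 and PIP2F, and limma-voom called 0. The shares of all genes called are edgeR's throughout and give no background for counts from DESeq2 or limma-voom. The smallest p-values belonged to DELTA-TIP2 at -1.25 ± 0.25 (adjusted p = 0.16) and DELTA-TIP3 at -1.48 ± 0.33 (adjusted p = 0.174), which did not pass. PIP2F stood at -1.05 ± 0.28, PIP2A at -0.77 ± 0.24 and GAMMA-TIP2 at -0.66 ± 0.22 on the log2 scale. The median was -0.50 over the 29 members and 0.04 over all genes. Groups did not overlap for 16 members that were lower and 3 that were higher, against 23.7% and 28.6% of all genes.

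Set directly against the ipdc mutant at 7 d, Az39 changed 0 of 29 members in the edgeR test, against 0.117% of all genes. Unadjusted p was under 0.05 for 5 members and for 1743 of all 18867 genes. DESeq2 called 1 member (PIP2D) and limma-voom called 0. PIP2D had the smallest p, at 17.8 and 12.4 CPM with Az39 and 2.71 and 6.10 CPM with ipdc, a log2 difference of 1.78 ± 0.48 (adjusted p = 0.33). NLM2 followed at 0.61 ± 0.19 (adjusted p = 0.398). Of the 5 members that fell with Az39, DELTA-TIP2 differed by 0.03 ± 0.25 and DELTA-TIP3 by 0.04 ± 0.33 between the strains. PIP2F differed by -0.19 ± 0.28, PIP2A by -0.27 ± 0.24 and GAMMA-TIP2 by -0.33 ± 0.22. These differences were about 1.5 standard errors or less, so a difference between the strains was not detectable for them with 2 libraries per group. Groups did not overlap for 4 members that were higher and 9 that were lower with Az39, against 22.5% and 20.3% of all genes.

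**Figure D3:**
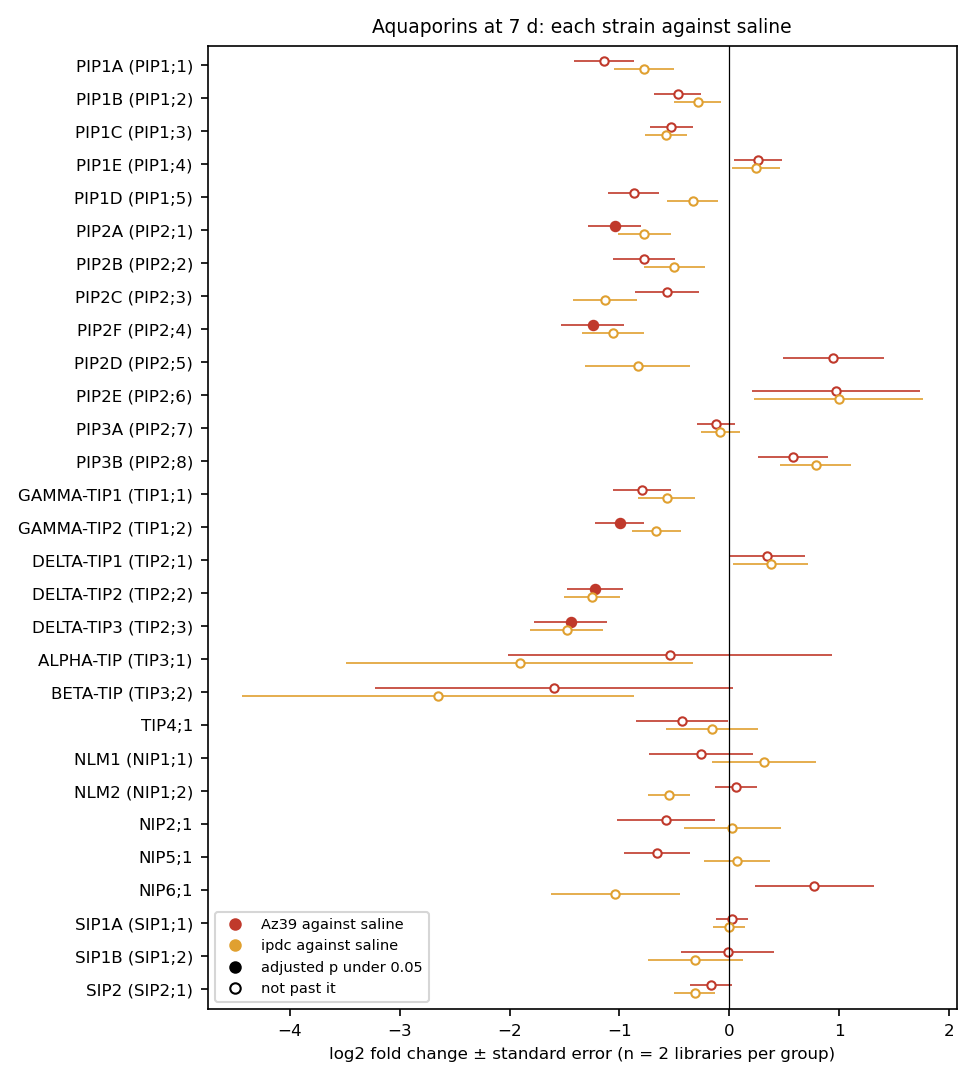
Log2 fold change of the 29 tested aquaporins at 7 d, with Az39 above ipdc for each member, both against the same 2 saline libraries. Bars are standard errors and filled points have an adjusted p under 0.05. The 5 filled points, all for Az39, lie between -1.44 and -0.998, and the median is -0.53 with Az39 and -0.50 with ipdc.

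At 24 h no member passed the edgeR test in the 3 treatment comparisons. Az39 against saline gave 0 of 29 calls in the edgeR test, where 0% of all genes passed. DESeq2 and limma-voom also called 0 members. Of all 18867 genes 249 had an unadjusted p under 0.05, and of the 29 members 2 did. These were DELTA-TIP3 at -1.09 ± 0.33 and NLM2 at -0.48 ± 0.19 (adjusted p = 1 for both). The median was -0.08 over the members and 0.00 over all genes, and groups did not overlap for 6 members that were lower and 0 that were higher with Az39, against 11.1% and 13.6% of all genes. The ipdc mutant against saline at 24 h gave 0 calls among the members in the edgeR test, against 2.11% of all genes (1.93% higher and 0.175% lower). At an unadjusted p under 0.05 were 3 members and 3073 of all 18867 genes. DESeq2 called BETA-TIP (TIP3;2), ALPHA-TIP (TIP3;1) and PIP2E, limma-voom called 0, and without ipdc 24 h replicate 2 the edgeR count was 1, BETA-TIP. BETA-TIP stood at 7.03 ± 1.93 (adjusted p = 0.0859) and PIP2E at 2.43 ± 0.73 (adjusted p = 0.113). Groups did not overlap for 5 members that were higher and 1 that was lower with ipdc, against 21.7% and 18% of all genes. Az39 against ipdc at 24 h also gave 0 calls in the edgeR test, against 0.959% of all genes (0.0901% higher and 0.869% lower). Here 6 members and 3513 of all 18867 genes were at an unadjusted p under 0.05. DESeq2 called PIP2E, NLM2 and DELTA-TIP3, and limma-voom called 0. NLM2 at -0.80 ± 0.19 (adjusted p = 0.0701) and DELTA-TIP3 at -1.14 ± 0.34 (adjusted p = 0.109) had the smallest p-values, and without ipdc 24 h replicate 2 the edgeR count was 1, NLM2. For 14 members that were lower and 0 that were higher with Az39 the groups did not overlap, against 23.9% and 21.7% of all genes. Among the 14 were the abundant PIP1A, PIP1B, PIP2A, PIP2B, GAMMA-TIP1, GAMMA-TIP2 and DELTA-TIP2, at log2 differences of -0.60 to -0.28.

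In roots given saline alone, 9 of 29 members rose at 7 d relative to 24 h and none of the other 20 passed. Of all genes tested, 8.02% were called higher and 8.6% lower, 16.6% in all. The 5 vacuolar and plasma membrane members that fell with Az39 at 7 d were all among the 9, and both comparisons used the saline 7 d libraries. DELTA-TIP3 rose by 2.01 ± 0.34 (adjusted p = 0.0104), DELTA-TIP2 by 1.60 ± 0.26 (adjusted p = 0.0094), PIP2F by 1.60 ± 0.29 (adjusted p = 0.0118) and PIP1D by 1.54 ± 0.24 (adjusted p = 0.00902). GAMMA-TIP2 rose by 1.09 ± 0.22 (adjusted p = 0.0161) and PIP1A by 1.01 ± 0.27 (adjusted p = 0.0359). PIP2A rose by 0.90 ± 0.24 (adjusted p = 0.0332), PIP1B by 0.85 ± 0.21 (adjusted p = 0.028) and PIP1C by 0.83 ± 0.19 (adjusted p = 0.0234). By subfamily, 6 of 13 PIPs and 3 of 8 TIPs rose, with median differences of 0.73 and 0.92, against 0.01 over all genes. Groups did not overlap for 16 members that were higher and 7 that were lower at 7 d, against 33.9% and 33.7% of all genes. The saline 24 h replicates themselves differed, since 20 of 29 members were higher in replicate 2, with a median log2 ratio of 0.44 over the members and -0.00 over all genes. Without saline 24 h replicate 1, 0 members and 27 of all genes passed. The count was 1 (DELTA-TIP3) without saline 7 d replicate 1 and 4 without saline 7 d replicate 2. It was 7 without either ipdc 7 d library, where PIP1A and PIP2A lost their calls.

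With Az39, 1 of 29 members changed between the times, against 9.71% of all genes called higher and 4.23% lower, 13.9% in all. DELTA-TIP3 rose by 1.66 ± 0.34 at 7 d relative to 24 h (adjusted p = 0.0124). DELTA-TIP2 was next at 0.79 ± 0.25 (adjusted p = 0.0659) and did not pass. For 8 members that were higher and 0 that were lower the times did not overlap, against 30% and 30.2% of all genes. DELTA-TIP3 lost its call without either Az39 24 h replicate or without Az39 7 d replicate 2. The count was 0 without Az39 24 h replicate 2 or Az39 7 d replicate 2, 1 (PIP2F in place of DELTA-TIP3) without Az39 24 h replicate 1, 3 without Az39 7 d replicate 1, and 2 without either saline 24 h library. With ipdc, PIP1D rose by 0.92 ± 0.23 at 7 d (adjusted p = 0.0247) and 4 members fell, against 9.6% of all genes called higher and 10.5% lower, 20.1% in all. NLM2 fell by 1.22 ± 0.19 (adjusted p = 0.0059) and PIP2E fell by 3.002 ± 0.76 (adjusted p = 0.0247). Of the seed types, ALPHA-TIP fell by 6.12 ± 1.79 (adjusted p = 0.0396) and BETA-TIP fell by 6.94 ± 1.95 (adjusted p = 0.0347). Times did not overlap for 7 members that were higher and 6 that were lower with ipdc, against 30.2% and 32.3% of all genes. Without ipdc 24 h replicate 1 the count was 3 (PIP2E, PIP2D and NLM2). It was 0 without ipdc 7 d replicate 1 and 1, NLM2, without ipdc 7 d replicate 2. Without ipdc 24 h replicate 2, PIP2E and PIP1D lost their calls, and without Az39 7 d replicate 1, ALPHA-TIP did.

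**Figure D4:**
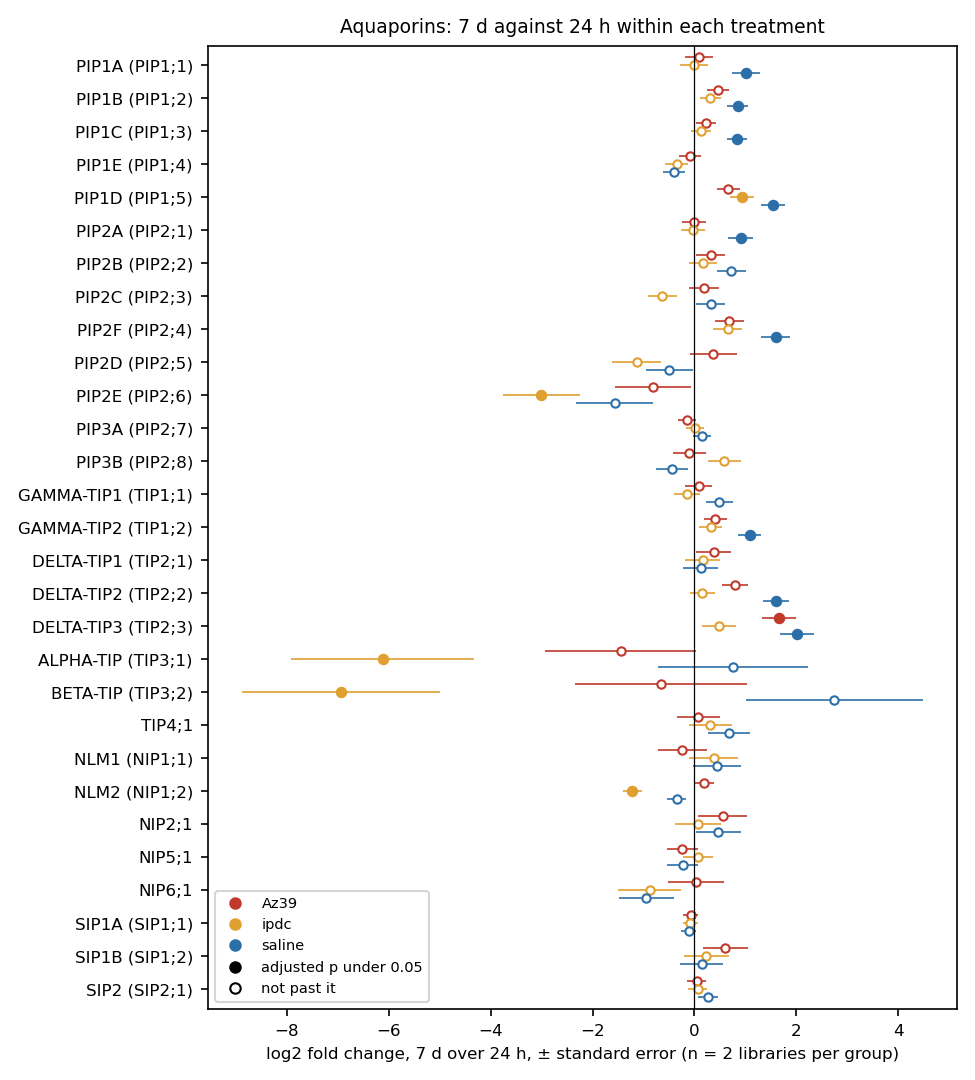
Log2 fold change of the 29 tested aquaporins at 7 d over 24 h, with Az39, ipdc and saline from top to bottom for each member. Bars are standard errors and filled points have an adjusted p under 0.05. The 9 filled saline points lie between 0.83 and 2.01, while the Az39 and ipdc points of the same members are mostly closer to 0.

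Whether the response to a strain differed between 7 d and 24 h was tested as an interaction. For Az39, 0 of 29 members passed in the edgeR test, against 0.0424% of all genes, and DESeq2 and limma-voom called 0. At an unadjusted p under 0.05 were 5 members and 2235 of all 18867 genes. PIP2A had the smallest p, with a log2 difference of responses of -0.92 ± 0.34 (adjusted p = 0.335), and PIP1D followed at -0.87 ± 0.33 (adjusted p = 0.345). For ipdc, 0 members passed in the edgeR test, against 0.106% of all genes (0.0106% higher and 0.0954% lower). Here 12 members and 2631 of all 18867 genes were at an unadjusted p under 0.05. DESeq2 called 3 of these responses (BETA-TIP, DELTA-TIP2 and DELTA-TIP3), limma-voom called 0, and without ipdc 24 h replicate 2 the edgeR count was 1, BETA-TIP. DELTA-TIP2 stood at -1.45 ± 0.36 (adjusted p = 0.134) and BETA-TIP at -9.68 ± 2.58 (adjusted p = 0.153). The fall of 5 members with Az39 at 7 d was therefore not shown to differ from their response at 24 h.

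The root and barrier marker lists took their largest shares of counts in saline roots at 7 d. The root marker list took 0.552% and 0.912% of counts with Az39 at 7 d, 0.745% and 0.7495% with ipdc and 1.12% and 1.24% with saline, and 0.660% to 0.817% at 24 h. Most of this share was PYK10, and the other 11 genes took 0.0273% and 0.0334% with Az39 at 7 d, 0.0411% and 0.0368% with ipdc, 0.0653% and 0.0658% with saline, and 0.0357% to 0.0534% at 24 h. A list of endodermal barrier genes, which encode parts of the Casparian strip or its control and of which 7 of 8 were in the table, took 0.0201% and 0.0172% with Az39 at 7 d, 0.0202% and 0.0214% with ipdc, 0.0280% and 0.0268% with saline, and 0.00950% to 0.0229% at 24 h. With Az39 at 7 d the median log2 difference from saline was -0.61 over the 12 root markers, of which 2 were above 0, and -0.45 over the 6 tested barrier genes, of which 0 were above 0. In that comparison edgeR called 0 root markers, with 5 at an unadjusted p under 0.05 against 4582 of all 18867 genes. DESeq2 and limma-voom each called 1, the phosphate transporter gene PHT1;1, as lower. All 3 tools called 0 barrier genes, with 0 at an unadjusted p under 0.05. Between 7 d and 24 h in saline roots, 6 of the 12 root markers were above 0, with a median of 0.28. EdgeR called 0 of them, with 6 at an unadjusted p under 0.05 against 6360 of all 18867 genes. DESeq2 called 3 of the root markers (EXPA18, CASP1 and PYK10) and limma-voom 1 (EXPA18). Their part in the aquaporin differences was not tested.

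The seed types varied more than any other member. ALPHA-TIP and BETA-TIP are channels of the protein storage vacuoles of seeds. ALPHA-TIP (AT1G73190, chr1:27521944-27523332, plus strand) had 5.84 and 11.98 CPM with Az39 at 7 d, 2.91 and 3.97 CPM with ipdc, and 24.0 and 1.92 CPM with saline. At 24 h ALPHA-TIP had 1.23 and 46.6 CPM with Az39, 437 and 41.7 CPM with ipdc, and 12.5 and 2.92 CPM with saline. Replicates of saline at 7 d and of both Az39 and ipdc at 24 h differed more than 10-fold, and the first ipdc 24 h library was far above the rest. BETA-TIP (AT1G17810, chr1:6130025-6131627, plus strand) had 0.885 and 4.74 CPM with Az39 at 7 d, 0.710 and 1.99 CPM with ipdc, and 16.6 and 0.394 CPM with saline. At 24 h it had 0.206 and 8.10 CPM with Az39, 302 and 28.1 CPM with ipdc, and 2.26 and 0.314 CPM with saline. The library at 4.94% seed transcripts held the maximum of each, and both ipdc 24 h libraries were above all others for BETA-TIP. Without these 2 members the family's share of counts in the ipdc 24 h libraries was 0.539% and 0.582%, against 0.605% and 0.588% with them. PIP2E (AT2G39010, chr2:16291280-16294101, plus strand), a channel expressed mainly in shoots, had 2.30 and 7.80 CPM with Az39 at 7 d, 3.68 and 6.58 CPM with ipdc, and 0.930 and 4.18 CPM with saline. Its 24 h values were 7.31 and 10.3 CPM with Az39, 20.7 and 61.4 CPM with ipdc, and 6.38 and 8.79 CPM with saline. The highest PIP2E library was the one with the highest photosynthesis share, 1.92%. The part of seed or green tissue in these values was not tested.

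**Figure D5:**
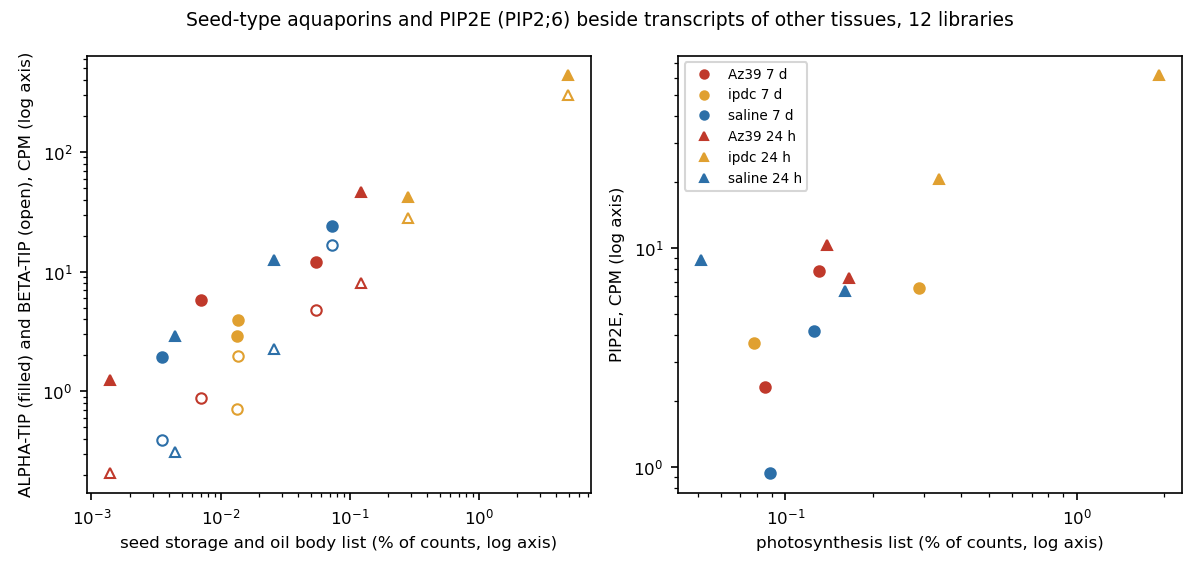
CPM of the seed types ALPHA-TIP and BETA-TIP against the share of counts in seed storage and oil body genes (left), and CPM of PIP2E against the share in photosynthesis genes (right), all on log axes, with 1 symbol per library and gene. The ipdc 24 h libraries hold the highest shares, up to 4.94% and 1.92%, and the maximum of each gene, 437 CPM for ALPHA-TIP, 302 CPM for BETA-TIP and 61.4 CPM for PIP2E.

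Proteins that act on aquaporins or beside them were followed in a list of 15, all of which were tested. With Az39 at 7 d, 2 of the 15 fell against saline, where 1.34% of all genes were called lower. BOR1, a boron exporter that works with NIP5;1 in boron uptake, had 20.8 and 29.1 CPM with Az39 at 7 d and 70.2 and 77.4 CPM with saline, and fell by 1.56 ± 0.30 (adjusted p = 0.0275). RMA2, a ubiquitin ligase of a family in which RMA1 acts on PIP2A, had 5.48 and 3.43 CPM with Az39 and 13.8 and 18.45 CPM with saline, and fell by 1.85 ± 0.32 (adjusted p = 0.0195). NIP5;1 itself stood at -0.66 ± 0.30 (adjusted p = 0.214). The median was -0.18 over the 15 and 0.05 over all genes. With ipdc against the same saline libraries at 7 d, edgeR called 0 of the 15, against 0.0159% of all genes. BOR1 stood there at -1.01 ± 0.29 (adjusted p = 0.258) and RMA2 at -1.32 ± 0.31 (adjusted p = 0.182). Az39 against ipdc at 7 d also gave 0 edgeR calls, against 0.117% of all genes. Between the strains BOR1 differed by -0.55 ± 0.29 (adjusted p = 0.584) and RMA2 by -0.53 ± 0.32 (adjusted p = 0.617). Between the times 2 of the 15 were higher and 2 lower with Az39, against 9.71% and 4.23% of all genes, and 2 higher and 2 lower with ipdc, against 9.6% and 10.5%. With saline 2 were higher, against 8.02% of all genes. With Az39, BOR1 fell by 1.18 ± 0.30 (adjusted p = 0.0293) and RMA2 fell by 1.21 ± 0.32 (adjusted p = 0.0337) at 7 d. SYP121, a syntaxin that helps to deliver PIPs to the plasma membrane, rose by 2.48 ± 0.40 (adjusted p = 0.00433), and QSK1, a co-receptor of the kinase SIRK1 that acts on aquaporins, rose by 0.75 ± 0.22 (adjusted p = 0.0473). With ipdc, SYP121 rose by 2.09 ± 0.39 (adjusted p = 0.01) and QSK1 by 0.75 ± 0.22 (adjusted p = 0.0393) at 7 d, while RMA2 fell by 1.10 ± 0.31 (adjusted p = 0.0356). TSPO, which directs PIP3A to degradation, fell by 7.71 ± 1.75 with ipdc (adjusted p = 0.0174), at 0.517 and 0.343 CPM at 7 d and 166 and 18.4 CPM at 24 h. Its highest library was also the one with the highest seed share. With saline, SYP121 rose by 1.27 ± 0.38 (adjusted p = 0.047) and RMA3 by 1.07 ± 0.26 (adjusted p = 0.0245). Of the 6 tested barrier genes, edgeR called 1 higher at 7 d with ipdc and 1 with saline, against 9.6% and 8.02% of all genes. In each of these comparisons 5 of the 6 were above 0. The gene called was MYB36, the regulator of Casparian strip formation. MYB36 rose by 1.296 ± 0.27 with ipdc (adjusted p = 0.0143) and by 0.94 ± 0.27 with saline (adjusted p = 0.0408).

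Reads of some members may not have been assignable to them alone. PIP2B and PIP2C, neighbours on chromosome 2, shared 93 exact windows of 150 bases, 7.78% and 8.68% of the windows in their transcripts. NIP2;1 shared 67.2% of its windows with other loci, mostly 1 that overlaps it on the opposite strand. None of these loci was in the count table. ALPHA-TIP shared 13.7% and BETA-TIP 30.6% with loci that overlap them on the opposite strand. The locus at ALPHA-TIP was in the count table and that at BETA-TIP was not. Whether strand was used in counting is not given in the sources used here. The other members in the count table, including the 5 that fell with Az39 at 7 d, shared no such window with another annotated gene. Between coding sequences, identity was 60.8% to 85% among PIPs and 52.1% to 81.5% among TIPs, and 40.9% to 52.9% between subfamilies.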

How the data were processed

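The authors deposited gene-level read counts of 12 libraries in 1 table. Reads were aligned with HISAT2 2.2.1 to TAIR10 and assigned to genes with featureCounts, per the submitters' processing notes. For strand, multimapping and feature type, no setting is stated in the labels or notes. Libraries were grouped by strain and time from the labels. From the deposited counts, edgeR 4.0.16 (R 4.3.3) fitted 1 mean per group over all 12 libraries, with TMM scaling, filterByExpr (minimum count 10) and the quasi-likelihood F test, leaving 6 residual degrees of freedom. P-values were Benjamini-Hochberg adjusted over 18867 genes. The biological coefficient of variation was 24.5%. CPM used TMM-scaled library sizes, and levels between genes were divided by the longest RefSeq coding length. DESeq2 1.42.0, limma 3.58.1 (voom), RLE scaling, other low-count filters, a replicate block and the omission of each library were alternatives. The procedure was tested on simulated data. No replicate pair agreed within sampling noise (chi-square per degree of freedom 15 to 99.9). Full statistics were given for every member called in a comparison, with the 2 smallest p-values where fewer than 3 were called, and each library's values for called members and the 10 most abundant. Names and sequences are those of RefSeq TAIR10.1, read without converting coordinates. The members and lists were chosen with earlier results of these data known.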

Additional observations from a re-analysis of the deposited data

How the results depend on the processing

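Counts are of the 29 tested aquaporins at an adjusted p under 0.05. Shares over all genes are not given for the other tools, so their counts have no background beside them. DESeq2 gave 9 for Az39 against saline at 7 d (edgeR 5), 4 for ipdc against saline and 1 for Az39 against ipdc at 7 d (edgeR 0 each), 3 for ipdc against saline and 3 for Az39 against ipdc at 24 h (edgeR 0 each), 3 for Az39 at 7 d against 24 h (edgeR 1) and 3 for the ipdc interaction (edgeR 0). For ipdc at 7 d against 24 h, limma-voom gave 3 (edgeR 5). Under the replicate block within each time, the count was 0 for Az39 against saline at 7 d, 3 for ipdc between times and 7 for saline between times. Between groups of the same time, differences between the replicates correlated at -0.245 to 0.109, and the main fit used no pairing. Whether the replicate marks name a shared batch is not given in the sources used here, and these correlations cannot settle it. With 1 library left out, counts ran from 0 to 7 for Az39 against saline at 7 d, 0 to 11 for saline between times, 0 to 5 for ipdc between times, 0 to 3 for Az39 between times, and 0 to 1 for both ipdc comparisons at 24 h and the ipdc interaction. Leaving out a library of another group also moved these counts. Each such fit estimated the scaling and the shared spread anew. No alternative turned the sign of a called member, and of the single-member values 287 kept and 93 lost their call. RLE scaling shifted the median of all genes by -0.0169 to 0.0149 (log2, RLE minus TMM). With 2 libraries per group, leaving 1 library out moved the log2 differences of the 5 members that fell with Az39 at 7 d between -1.89 and -0.90. The cause of these shifts was not tested.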
